A study of Mus musculus with 6 samples.

Results

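The Hippo pathway restrains growth by keeping the transcriptional coactivators YAP and TAZ out of the nucleus. The kinases LATS1 and LATS2, themselves switched on by the MST kinases, phosphorylate YAP and TAZ, which are then held in the cytoplasm or degraded. When the kinases are inactive, YAP and TAZ bind TEAD transcription factors in the nucleus, and among the genes they are known to induce are inhibitors of their own activity, Lats2 and Amotl2, which form a negative feedback. In mammary carcinoma cells YAP and TAZ are known for promoting growth and invasion. RNA levels, which are all that was measured here, say nothing of the phosphorylation or position of these proteins.

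The genes described are the 10 symbols Yap1, Wwtr1, Lats1, Lats2, Amot, Amotl1, Amotl2, Ajuba, Ankrd1 and Axl, each found by its exact symbol among the 55571 symbols of the deposited count table. They were measured by RNA sequencing in E0771, a mouse mammary carcinoma line, in 3 libraries of cells expressing wild-type Malt1 (Malt1-WT) and 3 libraries of cells with the vector control, all at the basal condition. Malt1 is a protease of the paracaspase type that also acts as a scaffold in signalling to NF-kB. The comparison asks how these genes differ when Malt1 is introduced. The labels do not give the promoter of the construct, whether each line is a clone or a pool, or whether separate cultures gave the libraries. The p-values therefore measure the spread between these libraries and no more, and that spread may be technical.

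Total counts ran from 17601656 to 20543778 in Malt1-WT and from 17615241 to 19874209 in the vector control, and 13594 genes had enough counts to be tested. Malt1 itself was at 305 ± 6.49 CPM (counts per 1000000 counts of the library, after TMM scaling between libraries) in Malt1-WT and 30 ± 1.32 CPM in the vector control (SD, n = 3 each), in accord with the labels. Of the 7 epithelial markers examined, Krt8 (59.7 ± 1.83 CPM in Malt1-WT, 68.6 ± 2.31 CPM in the vector control) and Epcam (6.23 ± 1.01 CPM in Malt1-WT, 6.31 ± 0.319 CPM in the vector control) were counted above the filter on low counts, while Cdh1, Krt18, Krt19, Cldn3 and Cldn7 were not. The 7 epithelial markers summed to 64.3 to 69.9 CPM in Malt1-WT libraries and 73.4 to 77.5 CPM in vector libraries, and the 7 fibroblast and pericyte markers to 383 to 408 CPM in Malt1-WT and 369 to 393 CPM in the vector control. That sum holds opposite changes, since of its 5 tested genes 1 was higher and 3 were lower, with Pdgfrb at 224 CPM in Malt1-WT and 151 CPM in the vector control, Pdgfra at 116 CPM in Malt1-WT and 161 CPM in the vector control, and Col1a1 at 10.9 CPM in Malt1-WT and 20.1 CPM in the vector control. The 8 leukocyte markers summed to 15.9 to 18.3 CPM in Malt1-WT and 4.8 to 5.79 CPM in the vector control, mostly Cd68, while the leukocyte-defining Ptprc had 4 counts in all in Malt1-WT and 3 in the vector control, and Tyrobp had 0. The 4 endothelial markers summed to 10.3 to 10.8 CPM in Malt1-WT and 4.58 to 5.84 CPM in the vector control, mostly Pecam1, with Kdr and Tek below the filter.

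Of the 10 genes, 8 passed the filter on low counts. In Malt1-WT, 4 of these 8 were higher (Amotl2, Amotl1, Lats2 and Wwtr1), 2 were lower (Ajuba and Axl), and Yap1 and Ankrd1 did not pass the test (edgeR quasi-likelihood test, adjusted p under 0.05). Lats1 and Amot had almost no counts and were not tested. The background is high, since 61.2% of all tested genes were called, 31% as higher and 30.2% as lower, so the number of calls does not set these genes apart. Amotl2 was the only member called with a change of 2-fold or more, as were 13.1% of tested genes. The 3 libraries of one group lay wholly above those of the other for 6 of the 8 tested members, against 64.4% of all tested genes. In bulk libraries such as these, a change in the share of cells that express a gene and a change in RNA per cell cannot be told apart.

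**Figure D1:**
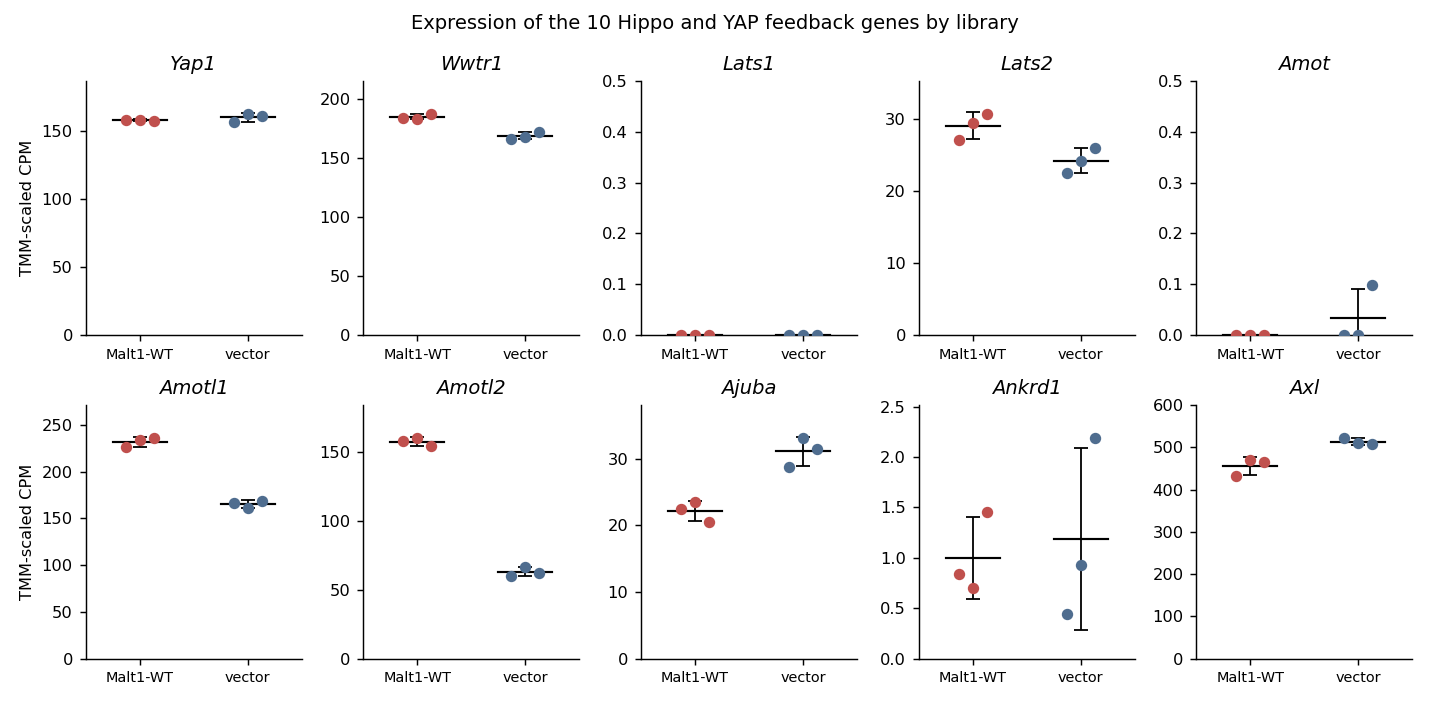
Expression of each gene in every library, in TMM-scaled CPM on linear axes that start at 0, with Malt1-WT left of the vector control. Points are libraries, lines are means and error bars are SDs over 3 libraries. Amotl2 and Amotl1 stand well above their vector libraries, Yap1 and Ankrd1 overlap between groups, and Lats1 is at 0 throughout.

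To show the sequence at the starts of these genes, the 250 bases before each RefSeq gene start (GRCm38.p6) were searched on both strands for GGAATG, the core of the element that TEAD factors bind, whose other strand reads CATTCC. All 10 genes matched a RefSeq start. The letters were found for 6 of the 10 genes, Yap1, Wwtr1, Amotl2, Ajuba, Ankrd1 and Axl, but not for Lats2, Lats1, Amot or Amotl1, and in 14.4% of the 27025 genes with such a window (12.7% of the tested genes among them). Several members are on the list because they are known TEAD targets, and a match is a description, not a binding site. Each stretch of 26 bases is written 5′ to 3′ on the strand that reads GGAATG, with those letters in capitals.
Amotl2, chr9:102717729-102717754, 60 to 65 bases before the start, minus strand: tgctatgccaGGAATGtgagagtttc
Ajuba, chr14:54577832-54577857, 181 to 186 bases before the start, plus strand: ggggcactgtGGAATGtatccatcaa
Ajuba, chr14:54577810-54577835, 159 to 164 bases before the start, plus strand: gtttacagttGGAATGcgcggagggg
Axl, chr7:25788951-25788976, 228 to 233 bases before the start, minus strand: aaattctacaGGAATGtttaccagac
Ankrd1, chr19:36120039-36120064, 205 to 210 bases before the start, minus strand: cactgccaaaGGAATGaccctctcac
Ankrd1, chr19:36119952-36119977, 118 to 123 bases before the start, minus strand: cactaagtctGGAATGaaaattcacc
Wwtr1, chr3:57576031-57576056, 131 to 136 bases before the start, minus strand: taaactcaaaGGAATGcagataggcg
Yap1, chr9:8004722-8004747, 136 to 141 bases before the start, minus strand: ggagtctgcaGGAATGtagcgacgcg

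Ajuba and Ankrd1 held 2 matches each, as did or exceeded 1.18% of genes with a window. Annotated transcripts of Amotl2 and Ankrd1 also begin upstream of the RefSeq start used. The matches of Ajuba lie close together, and its whole 250 bases are printed 5′ to 3′ on the gene's own minus strand (chr14:54577662-54577911), with both matches in capitals in their CATTCC reading.
Ajuba: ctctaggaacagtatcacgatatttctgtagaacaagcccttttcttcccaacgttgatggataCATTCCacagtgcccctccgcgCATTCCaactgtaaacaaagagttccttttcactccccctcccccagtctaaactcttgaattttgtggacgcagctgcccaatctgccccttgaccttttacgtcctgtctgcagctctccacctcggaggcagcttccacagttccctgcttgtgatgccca
The genes with a match included 2 that rose (Amotl2 and Wwtr1), 2 that fell (Ajuba and Axl) and 2 that did not pass the test (Yap1 and Ankrd1). The AP-1 letters TGANTCA were before 0 of the 10 genes, against 7.82% of genes, and the kappaB consensus was before 1, Lats2, against 8.23% of genes.

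The coactivators differed little between groups. Yap1 (chr9:7931999-8004596, minus strand, GRCm38), which encodes YAP, had 158, 158 and 157 CPM in Malt1-WT and 156, 162 and 161 CPM in the vector control. The Malt1-WT libraries lay within the range of the vector libraries. Exons of Yap1 overlap those of Gm20416, a gene model on the opposite strand with 0 counts in Malt1-WT and 1 in the vector control. If the counting ignored strand, reads in the shared part may not have been counted. With a log2 fold change of -0.02, Yap1 did not pass the test (SE 0.035, 95% interval -0.09 to 0.05, edgeR adjusted p = 0.647), and a change beyond 0.94-fold to 1.04-fold lies outside the interval. Wwtr1 (chr3:57455649-57575910, minus strand), which encodes TAZ, had 184, 183 and 187 CPM in Malt1-WT and 166, 168 and 172 CPM in the vector control. All Malt1-WT libraries were above all vector libraries, by a log2 fold change of 0.13 (SE 0.034, edgeR adjusted p = 9.08e-04), which is a 1.09-fold difference. An absolute change at least this large was found in 76% of tested genes.

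Both calls depend on the scaling between libraries, since scaling by library size alone, which puts the median of all tested genes at -0.079 (-0.003 with TMM), gave -0.10 for Yap1 (edgeR adjusted p = 0.0143) and 0.05 for Wwtr1 (edgeR adjusted p = 0.175). The ratio of the paralogs within a library needs no scaling. Wwtr1 counts divided by Yap1 counts gave 1.17, 1.16 and 1.19 in Malt1-WT and 1.06, 1.04 and 1.07 in the vector control, and the groups did not overlap. The mean log2 ratio was 0.15 higher in Malt1-WT (two-sided exact permutation test, p = 0.1, the smallest that 3 against 3 libraries allow, and 0.1 after adjustment over the 2 ratios tested). This test cannot reach 0.05 with 3 libraries a group, and a ratio does not say which paralog changed.

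**Figure D2:**
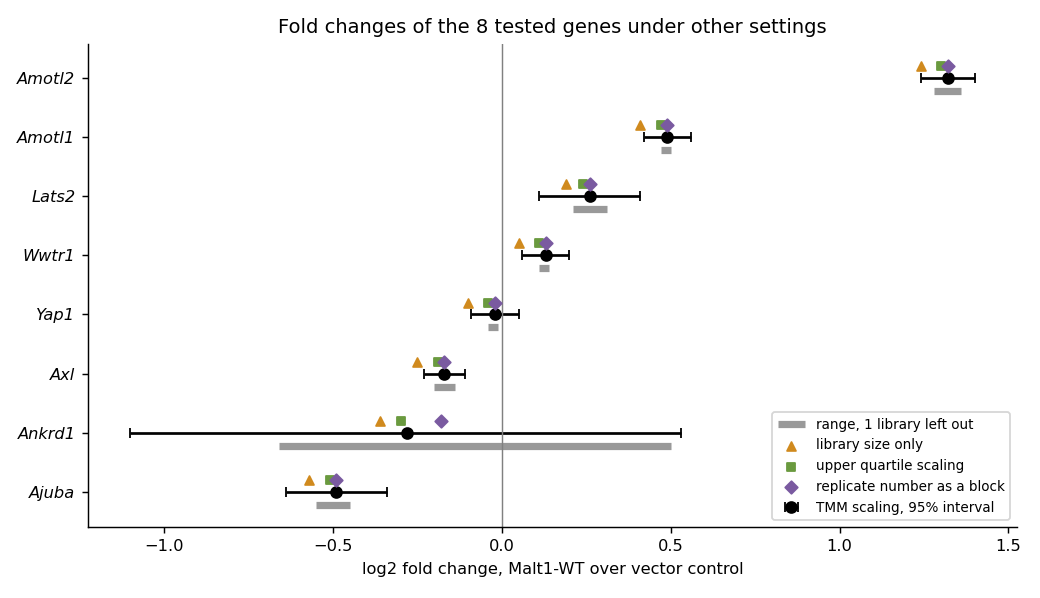
Log2 fold change of the 8 tested genes, Malt1-WT over vector control, from the highest to the lowest. Black points with bars are the TMM-scaled estimates with 95% intervals, coloured symbols are other scalings and the fit with the replicate number as a block, and grey bars span the estimates with 1 library left out. Library-size scaling shifts every gene to the left, which carries Yap1 and Wwtr1 across the threshold, and Ankrd1 crosses 0 when 1 library is left out.

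Of the genes of the LATS kinases, Lats2 was counted in every library and Lats1 in none. Lats2 (chr14:57689662-57758388, minus strand), which encodes a kinase of YAP and TAZ and is itself a known YAP target, had 27.0, 29.4 and 30.6 CPM in Malt1-WT and 22.5, 24.1 and 25.9 CPM in the vector control. The lowest Malt1-WT library was above the highest vector library, but not by much. Lats2 rose by 0.26 on the log2 scale (SE 0.074, edgeR adjusted p = 0.00186), a 1.2-fold difference. Its adjusted p stayed between 9.87e-04 and 0.0258 over 12 alternatives. Exons of Lats2 overlap those of Gm49361, a gene model on the same strand with 0 counts, so reads in the shared part may not have been counted.

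Lats1 (chr10:7681214-7716460, plus strand), which encodes the sister kinase, had 0 counts in each of the 3 Malt1-WT libraries and in each of the 3 vector libraries. Where reads of the gene could be counted, a count of 0 allows up to 3 counts, or 0.15 to 0.175 CPM in a Malt1-WT library and 0.147 to 0.166 CPM in a vector library, counting error only. Over the 3 libraries of a group together it allows up to 0.0545 CPM in Malt1-WT and 0.0512 CPM in the vector control. Lats2 had 1594 counts in Malt1-WT and 1418 in the vector control over the same libraries. No other annotated gene overlaps Lats1 in GENCODE M21.

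The genes beside Lats1 were examined after this value was seen. The 6 protein-coding genes in a row from Ulbp1 to Katna1, which span 322789 bases of chromosome 10 (7440362 to 7763150), had 2 counts in all over the 6 libraries. They are Ulbp1, Lrp11, Pcmt1, Nup43, Lats1 and Katna1, and include Nup43, a subunit of the nuclear pore, Pcmt1, a protein repair enzyme, and Katna1, the catalytic subunit of the microtubule-severing katanin. The next gene on one side, Ginm1, had 487, 521 and 481 counts in Malt1-WT and 398, 552 and 425 in the vector control. Ppil4 beyond it had 829 to 1086 counts in Malt1-WT and 1152 to 1235 in the vector control. On the other side Cnksr3 had 146, 160 and 151 counts in Malt1-WT and 56, 47 and 82 in the vector control. The near absence of counts thus covered a block of neighbours in both groups alike, and why these genes had almost no counts was not tested. Whether Lats1 RNA was absent or its reads were not assigned in the counting cannot be told apart from the count table, so its 0 is not read as a level.

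**Figure D3:**
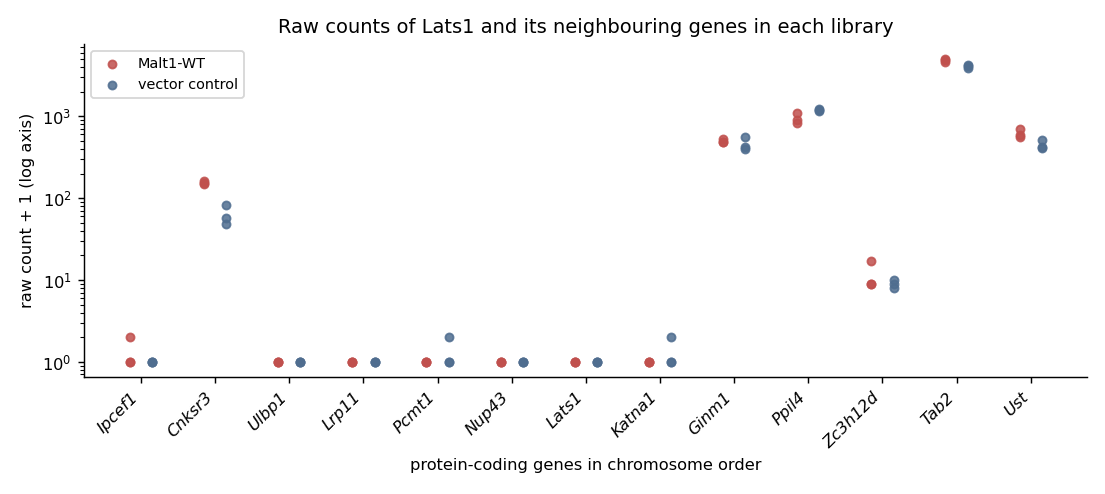
Raw counts plus 1, on a log axis, of Lats1 and the 6 protein-coding genes on either side of it in chromosome order, with Malt1-WT left of the vector control for each gene. Each point is a library. The 6 genes from Ulbp1 to Katna1 have 0 or 1 count in every library, while Cnksr3 and Ginm1 on either side have 47 or more.

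The angiomotins, scaffold proteins of cell junctions that bind YAP and TAZ, hold them in the cytoplasm and activate LATS2, held the largest change. Amotl2 (chr9:102716672-102733418, plus strand), a known YAP target, had 158, 160 and 154 CPM in Malt1-WT and 60.3, 66.5 and 62.0 CPM in the vector control. Every Malt1-WT library was more than 80 CPM above every vector library. Amotl2 rose by 1.32 on the log2 scale (SE 0.042, edgeR adjusted p = 2.94e-32), or 2.5-fold (95% interval 2.36 to 2.64), and 8.4% of tested genes had an absolute change at least as large. The authors' deposited table lists a log2 fold change of 1.31 with an adjusted p-value of 0.0188 for Amotl2. It gives the other 9 members a t statistic of 0 and an adjusted p-value of 1. Among these are Amotl1, at a log2 fold change of 0.48, and Ajuba, at -0.50. A t statistic of 0 beside such changes is not that of a test against no change. The authors' test is not named, so its p-values are not comparable with those of edgeR.

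Amotl1 (chr9:14541966-14645056, minus strand) had 226, 234 and 236 CPM in Malt1-WT and 166, 161 and 169 CPM in the vector control. The groups were again apart in every library. Amotl1 rose by 0.49 on the log2 scale (SE 0.034, edgeR adjusted p = 3.37e-18), 1.4-fold, a size reached by 33.4% of tested genes. Amot (chrX:145446425-145505181, minus strand), which encodes the founding angiomotin, had 0 counts in every Malt1-WT library and 0, 0 and 2 counts in the vector control, at or under the level that a count of 0 allows.

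The make-up of the family differed with the groups. Per kb of annotated exon, Amotl1, Amotl2 and Amot together reached 47.6, 48.6 and 47.9 CPM in Malt1-WT and 26.1, 26.5 and 26.7 CPM in the vector control. Amotl2 made up 52.8%, 52.2% and 51.1% of this sum in Malt1-WT and 36.7%, 39.8% and 37% in the vector control. By this measure Amotl2 was the more abundant in Malt1-WT and Amotl1 in the vector control. The order in Malt1-WT rests on the annotated exon lengths of all isoforms together (6289 bases for Amotl2, 10064 for Amotl1). In counts not divided by length, Amotl1 exceeded Amotl2 in every library. The ratio of Amotl2 to Amotl1 counts, a comparison added after the data were seen, was 0.698, 0.682 and 0.652 in Malt1-WT and 0.363, 0.414 and 0.367 in the vector control. The mean log2 ratio was 0.83 higher in Malt1-WT (two-sided exact permutation test, p = 0.1, the smallest that 3 against 3 libraries allow, and 0.1 after adjustment over the 2 ratios).

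**Figure D4:**
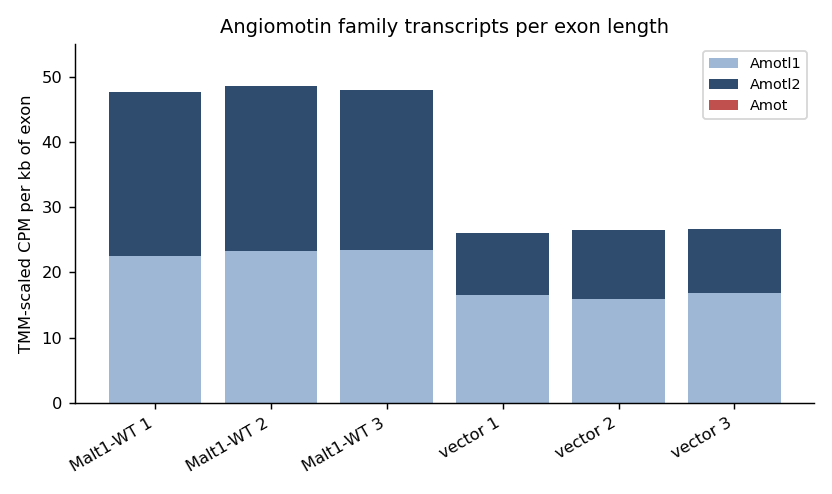
Amotl1, Amotl2 and Amot transcripts in each library as stacked bars, in TMM-scaled CPM per kb of annotated exon, with the Malt1-WT libraries left of the vector libraries. The summed height is 47.6 to 48.6 in Malt1-WT and 26.1 to 26.7 in the vector control, the Amotl2 part grows more than the Amotl1 part, and Amot is too low to be seen.

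Ajuba was the member that fell most. Ajuba (chr14:54567472-54577558, minus strand) encodes a LIM-domain scaffold that binds and inhibits the LATS kinases. It had 22.5, 23.5 and 20.5 CPM in Malt1-WT and 28.8, 33.1 and 31.4 CPM in the vector control, and every Malt1-WT library was below every vector library. Ajuba fell by 0.49 on the log2 scale (SE 0.074, edgeR adjusted p = 9.91e-08), to 71.2% of the vector level, and 33.3% of tested genes changed at least as much. Over 12 alternatives its log2 fold change ran from -0.57 to -0.45.

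The remaining members are targets of YAP and TAZ. Axl (chr7:25757273-25788705, minus strand), a receptor tyrosine kinase linked to invasion and drug resistance in carcinoma, had 431, 470 and 466 CPM in Malt1-WT and 522, 510 and 508 CPM in the vector control. It was the most abundant member and the groups did not overlap. Axl fell by 0.17 on the log2 scale (SE 0.03, edgeR adjusted p = 2.16e-06), to 88.8% of the vector level, and 68.6% of tested genes changed at least as much. Ankrd1 (chr19:36111961-36120099, minus strand), a nuclear ankyrin-repeat protein gene widely read as a YAP reporter, had 15, 14 and 25 counts in Malt1-WT and 8, 19 and 44 counts in the vector control. These are 0.839, 0.699 and 1.46 CPM in Malt1-WT against 0.442, 0.933 and 2.19 CPM in the vector control, and the groups overlap. Its log2 fold change of -0.28 had a 95% interval of -1.10 to 0.53 (SE 0.402, edgeR adjusted p = 0.565), and without vector control replicate 3 it was 0.50 (edgeR adjusted p = 0.367), so no difference in either direction was detectable at this depth.

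The members also differed in how evenly they were counted. Counting noise weighs more at low counts, and Ankrd1 had 8 to 44 counts a library. With 3 libraries a group, the spread between libraries is not read as a trait of a gene. The coefficient of variation over the 3 libraries was 0.253% to 6.9% in Malt1-WT and 1.5% to 7.13% in the vector control for the 7 tested members other than Ankrd1, for which it was 40.6% in Malt1-WT and 75.8% in the vector control. Per kb of annotated exon, the order in Malt1-WT was Axl (90.5 CPM per kb), Wwtr1 (38.7), Amotl2 (25), Amotl1 (23.1), Yap1 (17.0), Ajuba (6.07), Lats2 (4.16) and Ankrd1 (0.346). In the vector control it was Axl (102 CPM per kb), Wwtr1 (35.4), Yap1 (17.3), Amotl1 (16.4), Amotl2 (10), Ajuba (8.54), Lats2 (3.46) and Ankrd1 (0.412). Amotl2 stood above Amotl1 and Yap1 in Malt1-WT and below both in the vector control. All neighbours in these orders differed by more than the SD of either, the closest being Yap1 and Amotl1 in the vector control (SD 0.33 and 0.412 CPM per kb). The exon length counts every annotated isoform. Reads of Yap1 and Lats2 in exons shared with other gene models may not have been counted. An order between genes is therefore approximate, and the SD between libraries measures neither of these errors.

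The other genes of the pathway were read from lists chosen for their roles, with earlier results of these data known. The numbers called in each list stand against the 61.2% of all tested genes that were called, 31% as higher and 30.2% as lower. Of 14 further kinases and kinase subunits, 12 were tested, 5 were higher in Malt1-WT, 3 lower and 4 did not pass, with a median log2 fold change of 0.05 against -0.003 over all tested genes. Stk3, which encodes the MST2 kinase that activates LATS, rose by 0.56 (64.7 ± 0.528 CPM in Malt1-WT, 43.9 ± 1.92 CPM in the vector control, edgeR adjusted p = 1.79e-13), the kinase gene Map4k4 by 0.43, and Mob1b, which encodes an adaptor that activates LATS, by 0.22. Map4k1 fell by 0.87 (12.5 ± 0.309 CPM in Malt1-WT, 22.9 ± 0.488 CPM in the vector control), and the kinase genes Taok2 by 0.49 and Taok3 by 0.45. Map4k2 had 0 counts and Tnik 1.

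Of 10 upstream scaffold and polarity genes 7 were tested, 5 of them higher and 2 lower (31% and 30.2% of all tested genes), with a median of 0.20. The paralogs Wwc1 and Wwc2, which encode scaffolds of the LATS kinases and of which Wwc1 is known as KIBRA, went in opposite directions, Wwc1 with a rise of 0.61 (100 ± 2.01 CPM in Malt1-WT, 65.7 ± 1.5 CPM in the vector control) and Wwc2 with a log2 fold change of -0.31 (102 ± 3.1 CPM in Malt1-WT, 127 ± 6.26 CPM in the vector control). The junction gene Mpp5, which encodes PALS1, rose by 0.52 and Rassf1 by 0.39, and the polarity gene Scrib fell by 0.35. Among the relatives of Ajuba and the STRIPAK phosphatase genes, which restrain the Hippo kinases, 7 of 8 were tested, 4 were higher, 1 lower and 2 did not pass (median 0.14). Limd1, an Ajuba relative that also binds LATS, rose by 0.42 (92.0 ± 3.62 CPM in Malt1-WT, 68.6 ± 1.7 CPM in the vector control, edgeR adjusted p = 7.14e-12), where Ajuba itself fell. Strn3 rose by 0.22, and Slmap fell by 0.25.

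The TEAD factors, through which YAP and TAZ act, moved apart. Of 8 TEAD and VGLL genes 5 were tested, 2 were higher, 2 lower and 1, Tead3, did not pass (median 0.08). Among all tested genes 31% were higher and 30.2% lower, so these counts do not set the list apart. Tead1 rose by 0.80 (352 ± 7.73 CPM in Malt1-WT, 202 ± 8.98 CPM in the vector control, edgeR adjusted p = 2.29e-27), while Tead2 fell by 0.43 (61.8 ± 2.38 CPM in Malt1-WT, 83.4 ± 0.0921 CPM in the vector control) and Tead4 by 0.17. Vgll4, which encodes a cofactor that competes with YAP for TEAD, rose by 0.59 (63.7 ± 1.19 CPM in Malt1-WT, 42.3 ± 1.54 CPM in the vector control).

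A published cancer signature of YAP/TAZ-TEAD targets has 18 genes besides the 4 that are members. Of these 18, 13 were tested, 7 were higher in Malt1-WT, 1 lower and 5 did not pass, with a median of 0.25. The 8 called of 13 are close to the 61.2% called among all tested genes. By direction they were uneven, with 7 higher and 1 lower, where 31% of all tested genes were higher and 30.2% lower. Ccn1, which encodes a matricellular protein, was at 155 ± 4.86 CPM in Malt1-WT and 22.9 ± 0.654 CPM in the vector control (log2 fold change 2.76, SE 0.049, edgeR adjusted p = 2.37e-43). F3, which encodes tissue factor, the initiator of coagulation, was at 238 ± 5.8 CPM in Malt1-WT and 35.4 ± 1.02 CPM in the vector control (log2 fold change 2.75, SE 0.042). Nt5e, which encodes the adenosine-producing ectoenzyme CD73, rose by 1.25, and Myof, a membrane repair gene, fell by 0.20. Ccn2, a close relative of Ccn1 named after its values were seen, was at 2.59 ± 0.872 CPM in Malt1-WT and 2.20 ± 0.334 CPM in the vector control and did not pass (edgeR adjusted p = 0.382, with a log2 fold change of 0.25 and an SE of 0.241). The targets thus ranged from Ccn1 and F3, each over 6-fold higher, through Lats2 at 1.2-fold, to Axl and Myof, which were lower, and Ankrd1 and Ccn2, which were not called. Of the 8 leukocyte markers, Cd68 and Adgre1 were higher in the same Malt1-WT libraries. Adgre1 had 21, 32 and 28 counts in Malt1-WT and 2, 1 and 0 in the vector control. Csf1r did not pass (edgeR adjusted p = 0.061), and the other 5 markers were below the filter, Ptprc and Tyrobp among them. Whether any leukocytes were present was not tested, nor was a part of them in the changes of the targets.

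**Figure D5:**
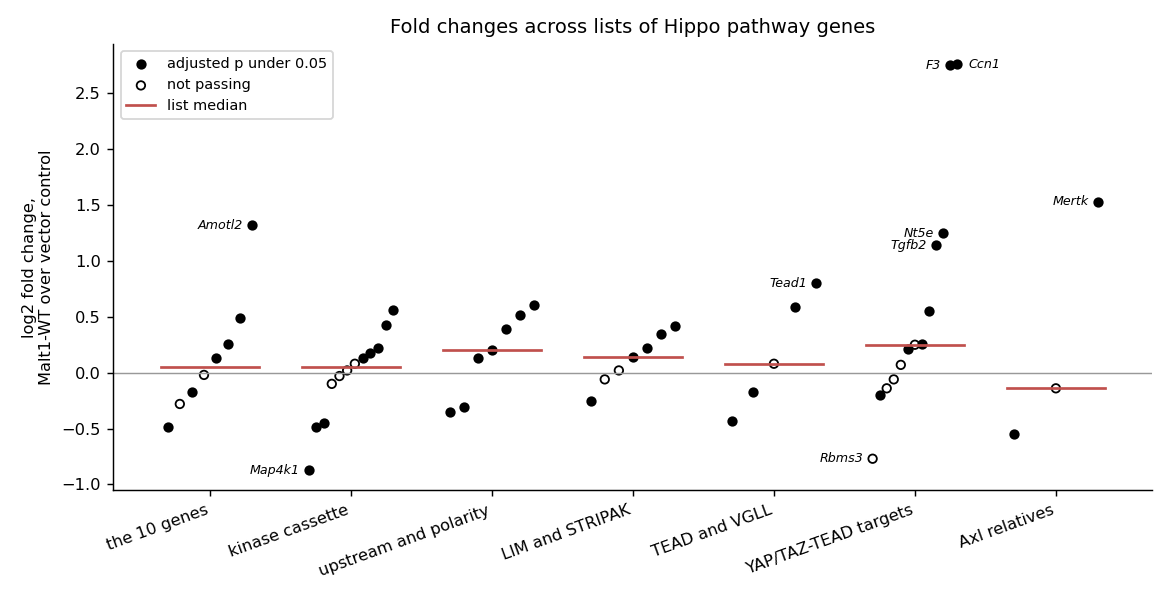
Log2 fold change, Malt1-WT over vector control, of the tested genes in each list, sorted within the list. Filled points passed an adjusted p of 0.05, open points did not, and red lines are list medians. Every list but that of Axl relatives has its median between 0.05 and 0.25, and Ccn1, F3, Mertk, Amotl2 and Nt5e are the highest points.

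Axl belongs to a family of receptors with Tyro3 and Mertk, whose ligands are encoded by Gas6 and Pros1. Pros1 fell by 0.55 (32.3 ± 0.82 CPM in Malt1-WT, 47.4 ± 2.22 CPM in the vector control, edgeR adjusted p = 2.16e-11). Gas6 had 0 counts in each Malt1-WT library and 1 count in each vector library. Tyro3 was at 37.2 ± 2.11 CPM in Malt1-WT and 40.8 ± 2.5 CPM in the vector control and did not pass (log2 fold change -0.14, edgeR adjusted p = 0.0558). Mertk, named after its values were seen, had 11, 13 and 20 counts in Malt1-WT and 5, 2 and 9 in the vector control (log2 fold change 1.53, edgeR adjusted p = 0.00724), a call lost without Malt1-WT replicate 3 (adjusted p = 0.0839) or vector control replicate 2 (adjusted p = 0.0734). Axl, with 25082 counts in Malt1-WT and 30058 in the vector control, was by far the most counted of the 3 receptors.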

How the data were processed

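RNA of 3 Malt1-WT and 3 vector control libraries was extracted with RNAiso Plus, made into directional NEBNext libraries and sequenced paired-end, per the labels' protocols. The submitters' processing notes list STAR 2.7.3a, featureCounts 1.6.3, Trim Galore 0.6.0 and the build GRCm38.p6 (mm10). Which annotation and strand setting were used is not stated in those notes, so reads of overlapping genes cannot be assigned with certainty. The authors deposited unnormalised counts, with a column for each library. Per the file headers they also deposited a log2 fold change, a mean log2 expression, a t statistic (a score) and p-values of their own comparison, and name no tool for it.

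Counts were fitted with edgeR 4.0.16 in R 4.3.3 (filterByExpr with a minimum count of 10, TMM scaling with factors from 0.973 to 1.03, robust quasi-likelihood test without a block), and p-values were adjusted by Benjamini-Hochberg over all 13594 tested genes. The call threshold was an adjusted p under 0.05. The standard error is the log2 fold change divided by the square root of the F statistic. Within groups, libraries differed by more than sampling noise (chi-square per degree of freedom 2.13 to 2.87), so all 6 were kept. Gene positions and exon lengths are from GENCODE M21 (GRCm38), and sequences from RefSeq (GRCm38.p6). DESeq2 1.42.0, other scalings, no filter, a replicate block and leaving out each library were alternatives. The code was tested on simulated data. The members and lists were chosen with earlier results of these data known. Beside the members and Malt1, up to 3 called genes with the largest change in each direction were named per list, at a mean log2 CPM of at least 1. One gene that this rule names is not reported here.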

Additional observations from a re-analysis of the deposited data

How the results depend on the processing

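Across 12 alternatives, 4 members were called higher and 2 lower, except with library size only (3 and 3, through Yap1 and Wwtr1). All genes called numbered 7632 (DESeq2) to 8534 (library size only), against 8320. Direction reversed only for Ankrd1 among the members and named genes, whose log2 fold change ran from -0.66 to 0.50 with 1 library left out (0.50 without vector control replicate 3). The list of Ajuba relatives and STRIPAK genes had 2 lower with library size only, against 1. The target list had 2 lower with upper quartile scaling and with library size only, against 1, and 1 to 2 with 1 library left out. Among Axl relatives, 2 were lower with upper quartile scaling and with library size only, against 1. With 1 library left out, 0 to 1 of them were higher and 1 to 2 lower. The target gene Tgfb2 (6 to 19 counts a library) lost its call without Malt1-WT replicate 3 (adjusted p = 0.0742) or vector control replicate 1 (adjusted p = 0.0735). The cause of these differences was not tested. Same-numbered libraries showed no shared deviation over all tested genes (correlations of -0.026, -0.021 and 0.017). Counting noise can hide a shared deviation, so a pairing by number is not excluded. With the replicate number as a block 8168 genes were called, the paired log2 difference in Wwtr1 over Yap1 was 0.15 (exact sign-flip p = 0.25, the smallest possible), and no member's call changed. The planned ratios over Lats1 and Amot were not run, because those genes had 0 and 2 counts. Low counts left Lats1 and Amot untested and the interval of Ankrd1 wide.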
